A study of Arabidopsis thaliana with 9 samples.

Results

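The JASMONATE ZIM-DOMAIN (JAZ) genes of *Arabidopsis* encode repressors of the jasmonate response, and 10 of them (JAZ1, JAZ2, JAZ3, JAZ5, JAZ6, JAZ7, JAZ8, JAZ9, JAZ10 and JAZ12) were followed here through leaf RNA sequencing libraries. The 10 genes were taken by their locus numbers, without a cut on any measured value, from tables of transcript abundance that list 37363 genes. All 10 were found. The choice was made with earlier results of these data known. Rosette leaves came from 4-week-old wild type plants of ecotype Columbia. One low R:FR group, labelled biological low R:FR and called biological-source here, spent 3 weeks at a red to far-red ratio of 1.4 and then 1 week at 0.3, set by light that neighboring grass reflected. The other, labelled artificial low R:FR and called artificial-source here, got the same ratios for the same times, with the low ratio made by far-red light emitting diodes. Weed-free plants had the ratio of 1.4 for all 4 weeks. These ratios are those of the labels, and the study's methods give a somewhat higher one for weed-free plants. Each group had 3 libraries, and each library held the pooled leaves of 3 plants. According to the study, the biological and the artificial source stood in separate growth chambers, and a divider parted the weed-free from the biological-source plants. Light source and chamber therefore cannot be told apart where artificial-source leaves are set against biological-source leaves, nor against weed-free leaves if these shared the chamber of the biological source. The hour of harvest was not given in the sources used here.

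JAZ proteins bind MYC2 and related transcription factors and hold their target genes off, together with the adaptor NINJA and co-repressors of the TOPLESS family. When jasmonoyl-isoleucine, the active hormone, accumulates, it joins JAZ proteins to the F-box protein COI1, and the JAZ proteins are degraded. The freed MYC factors switch on defense genes and also most JAZ genes, so JAZ transcripts are widely used as a readout of the pathway. Low R:FR is known to dampen jasmonate-dependent defenses in leaves.

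Between 1683076 and 5025090 reads of each of the 9 libraries could be recovered from the table of counts. The study reports many times more mapped reads for every library, so these totals are not the depth of sequencing. In the recovered reads, replicates of a group varied more than sampling noise alone. The 4 leaf markers summed to between 84874 and 110304 TPM in a library, whereas the 4 root markers reached at most 0.861 TPM, the 4 floral markers at most 0.755 TPM, and the 3 seed markers were listed at 0. The table of counts, however, held 1070 reads for the root marker PYK10, so its low TPM does not show absence. Of 5 markers of guard cells, vasculature, trichomes and dividing cells 3 were tested and 0 were called against weed-free leaves in limma. Of these, 2 were lower in artificial-source leaves at a nominal p below 0.05. Of the leaf markers 1 was called higher and 1 lower in biological-source than in weed-free leaves. The vascular marker SUC2 and the guard cell marker FMA were called higher in biological-source than in artificial-source leaves (limma adjusted p = 0.00597 and 0.0254). In that comparison 2 leaf markers were called higher and 2 lower, beside 23.6% of all genes called higher and 13.4% lower. Replicate 3 of every group stood apart in clock genes. Expression is given in TPM (transcript abundance scaled for gene length and library size). Of all genes, 17784 reached 1 TPM in at least 3 libraries and were tested with limma on log2(TPM + 0.1), with p-values adjusted by Benjamini-Hochberg over all of them and a threshold of 0.05. Among the 10 JAZ genes, 6 passed this minimum (JAZ1, JAZ2, JAZ3, JAZ6, JAZ9 and JAZ12) and 4 did not (JAZ5, JAZ7, JAZ8 and JAZ10). As whole leaves were sequenced, a lower level may stand for fewer cells that express a gene or for less RNA per cell, and these cannot be told apart.

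Of the 6 tested JAZ genes, JAZ9 and JAZ6 differed between treatments. JAZ9 was 3.07 times as high in artificial-source leaves as in weed-free leaves, and 0.442 times as high in biological-source leaves as in weed-free leaves. JAZ6 was 2.81 times as high in artificial-source leaves as in weed-free leaves and did not differ detectably in biological-source leaves. JAZ1, JAZ2, JAZ3 and JAZ12 did not pass the test in any comparison, and JAZ5, JAZ7, JAZ8 and JAZ10, which stayed below 2 TPM in every library, are described apart.

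**Figure D1:**
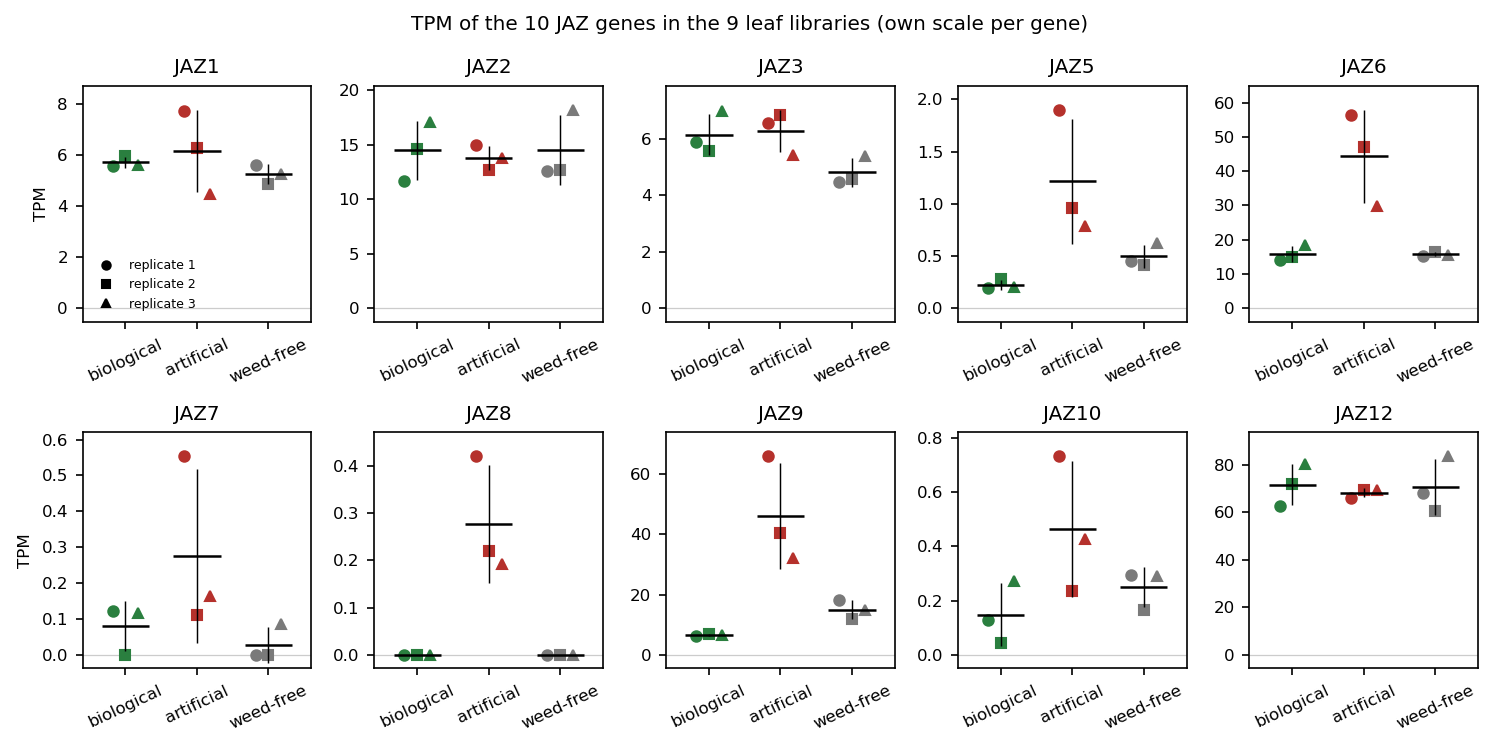
TPM of each JAZ gene (y axis, own linear scale per panel) in biological-source leaves, artificial-source leaves and weed-free leaves. Points are single libraries with the symbol giving the replicate number, horizontal lines are means and vertical lines are ± SD (n = 3); JAZ9 lies at 6.25 to 7.08 TPM in biological-source leaves, 32.2 to 65.8 in artificial-source leaves and 11.9 to 18.3 in weed-free leaves, without overlap.

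JAZ9 (AT1G70700, TAIR10.1 chromosome 1, 26654529 to 26657350, plus strand, with up to 8 exons and no overlapping gene) belongs to the same branch of the family as JAZ3 and JAZ4, and its protein also binds the DELLA repressor RGA. It had 6.25, 7.08 and 6.59 TPM in the 3 biological-source libraries and 65.8, 40.4 and 32.2 TPM in the artificial-source ones, against 18.3, 11.9 and 14.8 TPM in weed-free leaves. The 3 groups did not overlap, and the biological-source libraries were the lowest and the least spread. Means were 6.64 ± 0.418 TPM in biological-source leaves, 46.1 ± 17.5 TPM in artificial-source leaves and 15.0 ± 3.23 TPM in weed-free leaves (SD, n = 3 each). The log2 fold change of artificial-source over weed-free leaves was 1.57 (SE 0.24, limma adjusted p = 0.00971), and JAZ9 was higher in 3 of 3 artificial-source libraries. The log2 fold change of biological-source over weed-free leaves was -1.14 (SE 0.24, limma adjusted p = 0.0218). This lower level passed the threshold less firmly, since the adjusted p was 0.103 without biological replicate 1 and 0.0916 without weed-free replicate 1. When the sources were set directly against each other, JAZ9 was lower in biological-source than in artificial-source leaves (log2 fold change -2.71, SE 0.24, limma adjusted p = 0.000161), and this call remained when any single library was left out.

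JAZ6 (AT1G72450, chromosome 1, 27273968 to 27276562, minus strand) is a close relative of JAZ5 and is known for its part in the daily rhythm of resistance to *Botrytis*. It had 14.0, 15.1 and 18.6 TPM in biological-source leaves and 56.4, 46.9 and 29.7 TPM in artificial-source leaves, against 15.3, 16.4 and 15.5 TPM in weed-free leaves. All artificial-source libraries were above all others, whereas biological-source and weed-free libraries overlapped. The log2 fold change of artificial-source over weed-free leaves was 1.44 (SE 0.21, limma adjusted p = 0.00664). In biological-source leaves it was 0.0020 (SE 0.21, limma adjusted p = 0.996), so that a change could not be told from 0 at this spread. JAZ6 was lower in biological-source than in artificial-source leaves (log2 fold change -1.44, SE 0.21, limma adjusted p = 0.000816).

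To show what lies upstream of these genes, the 300 bases before the annotated start of JAZ9 and JAZ6 are set beside those of JAZ3 and JAZ12, 2 members that did not pass the test, as read from the TAIR10.1 genome and written 5′ to 3′ on the strand of the gene. Capitals mark matches, on either strand, to CACGTG (the G-box, the core site of MYC factors, which reads the same on both strands), CACATG (a G-box variant, CATGTG on the other strand), AAAATATCT (the evening element of clock factors, AGATATTTT on the other strand) or AAAAATCT (a CCA1-binding site, AGATTTTT on the other strand).
JAZ9, chr1:26654229-26654528, plus strand: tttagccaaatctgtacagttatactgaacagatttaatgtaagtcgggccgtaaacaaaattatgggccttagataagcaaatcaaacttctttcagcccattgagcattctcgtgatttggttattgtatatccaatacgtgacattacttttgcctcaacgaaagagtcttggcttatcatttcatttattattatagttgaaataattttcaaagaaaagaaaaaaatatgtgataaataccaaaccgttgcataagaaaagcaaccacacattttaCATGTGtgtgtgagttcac
JAZ6, chr1:27276563-27276862, minus strand: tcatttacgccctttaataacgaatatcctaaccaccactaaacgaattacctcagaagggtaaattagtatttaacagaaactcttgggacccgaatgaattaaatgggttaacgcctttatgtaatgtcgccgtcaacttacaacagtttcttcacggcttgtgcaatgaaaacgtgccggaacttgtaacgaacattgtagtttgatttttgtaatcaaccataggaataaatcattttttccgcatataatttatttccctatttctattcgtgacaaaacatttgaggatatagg
JAZ3, chr3:6119407-6119706, plus strand: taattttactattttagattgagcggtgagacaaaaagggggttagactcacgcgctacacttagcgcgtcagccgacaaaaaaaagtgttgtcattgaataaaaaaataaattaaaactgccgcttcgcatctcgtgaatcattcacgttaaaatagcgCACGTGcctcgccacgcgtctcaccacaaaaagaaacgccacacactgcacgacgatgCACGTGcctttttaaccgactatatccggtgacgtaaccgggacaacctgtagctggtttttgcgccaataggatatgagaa
JAZ12, chr5:7090404-7090703, plus strand: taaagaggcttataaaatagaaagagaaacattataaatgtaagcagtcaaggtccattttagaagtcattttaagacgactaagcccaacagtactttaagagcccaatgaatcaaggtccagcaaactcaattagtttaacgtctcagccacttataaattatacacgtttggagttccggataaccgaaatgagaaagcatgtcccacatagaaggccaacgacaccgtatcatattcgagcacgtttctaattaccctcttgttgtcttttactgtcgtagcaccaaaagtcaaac

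The JAZ3 window held 2 G-boxes, which began at positions -140 and -82 from the start, and the JAZ12 and JAZ6 windows held none of the 4 motifs. The JAZ9 window held no G-box and 1 match to the variant, read as CATGTG, which began at position -19. Among all 10 members, 4 had a G-box in the window (JAZ2, JAZ3, JAZ7 and JAZ8), against 7.09% of the windows of 27443 protein-coding genes. The variant was found in 2 members (JAZ9 and JAZ10) and in 13.1% of all windows, the evening element in 1 member (JAZ10) and in 2.79%, and the CCA1-binding site in 0 members and in 7.94%. The window of JAZ6 reaches into an annotated long non-coding RNA, AT1G09307, which was at most 0.109 TPM. A match describes the letters in these windows only, and whether a factor bound there was not measured.

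JAZ12 (AT5G20900, chromosome 5, 7090704 to 7092539, plus strand) was the most abundant member in all 9 libraries, and its protein is a known substrate of the ubiquitin ligase KEEP ON GOING. It had 62.8, 72.1 and 80.3 TPM in biological-source leaves and 66.0, 69.6 and 69.5 TPM in artificial-source leaves, against 68.2, 60.5 and 83.6 TPM in weed-free leaves. The groups overlapped, with log2 fold changes over weed-free of 0.03 (SE 0.14) in biological-source and -0.04 (SE 0.14) in artificial-source leaves, and neither passed the test (limma adjusted p = 0.921 and 0.916). JAZ12 shares 28 exon bases with AT5G20910 (9.43 to 12.6 TPM) and 21 with the long non-coding RNA AT5G03235 (0.642 to 1.15 TPM), both on the opposite strand, and the strand setting of the authors' counting was not given in the sources used here.

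JAZ2 (AT1G74950, chromosome 1, 28148574 to 28150446, minus strand), which in guard cells mediates the response to the bacterial toxin coronatine, had 11.7, 14.6 and 17.1 TPM in biological-source leaves and 14.9, 12.7 and 13.8 TPM in artificial-source leaves, against 12.6, 12.7 and 18.2 TPM in weed-free leaves. Its closest relative JAZ1 (AT1G19180, chromosome 1, 6621777 to 6623668, plus strand), one of the first JAZ proteins shown to bind COI1, had 5.56, 5.96 and 5.60 TPM in biological-source leaves and 7.70, 6.27 and 4.49 TPM in artificial-source leaves, against 5.62, 4.86 and 5.27 TPM in weed-free leaves. Both genes overlapped between all groups. The limma adjusted p ranged over the 3 comparisons from 0.835 to 0.994 for JAZ2 and from 0.613 to 0.780 for JAZ1.

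JAZ3 (AT3G17860, chromosome 3, 6119707 to 6123044, plus strand), in which the dominant jasmonate-insensitive allele *jai3-1* lies, had higher values in every library of both low R:FR sources than in weed-free leaves. It had 5.87, 5.58 and 6.97 TPM in biological-source leaves and 6.54, 6.84 and 5.42 TPM in artificial-source leaves, against 4.48, 4.57 and 5.40 TPM in weed-free leaves. No library of either treatment was below the highest weed-free library, although 5.42 and 5.40 TPM hardly differ. The log2 fold changes over weed-free were 0.34 (SE 0.16, limma adjusted p = 0.181) in biological-source and 0.37 (SE 0.16, limma adjusted p = 0.215) in artificial-source leaves, and neither passed the threshold. Both comparisons use the same weed-free libraries. Without replicate 3 of every group, an analysis chosen after seeing the data, JAZ3 passed it in artificial-source leaves (log2 fold change 0.55, limma adjusted p = 0.0303) and not in biological-source leaves (0.33, limma adjusted p = 0.106).

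**Figure D2:**
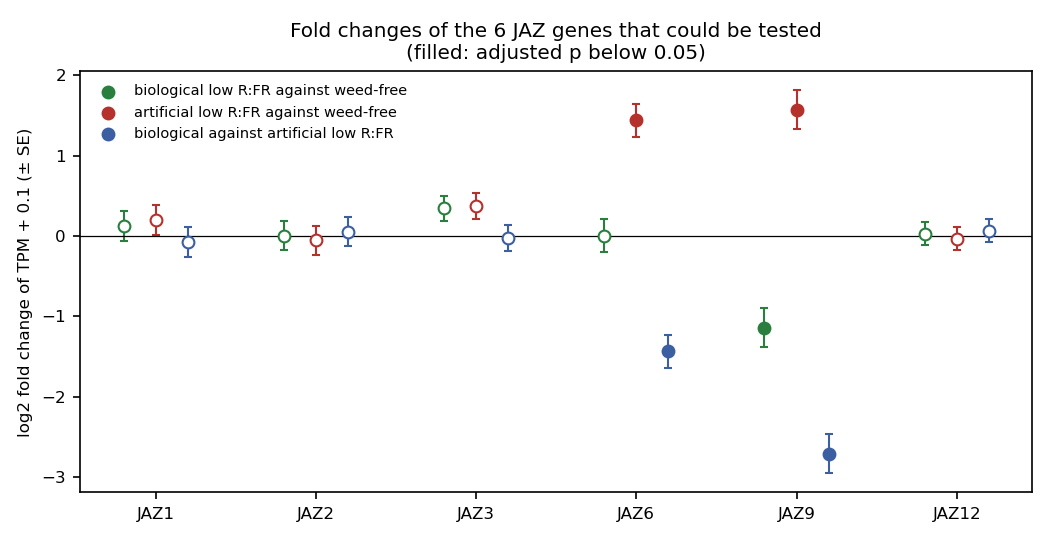
log2 fold changes of TPM + 0.1 (y axis) with SE bars for the 6 tested JAZ genes (x axis) in the 3 comparisons, filled where the limma adjusted p was below 0.05. Only JAZ9 and JAZ6 carry filled points among the 6, and JAZ9 lies at -1.14 in biological-source and 1.57 in artificial-source leaves.

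The other 4 members were expressed at low levels, with at most 1.90 TPM in any library. JAZ5 (AT1G17380, chromosome 1, 5955155 to 5957511, minus strand), the near relative of JAZ6, had 0.191, 0.281 and 0.210 TPM in biological-source leaves and 1.90, 0.958 and 0.786 TPM in artificial-source leaves, against 0.457, 0.418 and 0.622 TPM in weed-free leaves. Its groups did not overlap in TPM and were in the same order as those of JAZ9. Its recovered reads were 3, 1 and 1 in biological-source leaves and 7, 6 and 9 in artificial-source leaves, against 0, 1 and 3 in weed-free leaves. Biological-source and weed-free libraries thus overlapped in reads. The share of genes that separate in this way below the TPM minimum was not counted, for JAZ5 or for JAZ7 and JAZ8 below. JAZ8 (AT1G30135, chromosome 1, 10596352 to 10597341, plus strand), a short protein that resists hormone-driven degradation, was listed at 0 in all biological-source libraries and had 0.420, 0.221 and 0.192 TPM in artificial-source leaves, and was listed at 0 in all weed-free libraries. JAZ7 (AT2G34600, chromosome 2, 14573030 to 14573952, plus strand), the nearest relative of JAZ8, had 0.124, 0 and 0.118 TPM in biological-source leaves and 0.553, 0.110 and 0.165 TPM in artificial-source leaves, against 0, 0 and 0.0868 TPM in weed-free leaves. All artificial-source libraries were above all weed-free ones for JAZ7, but not above all biological-source ones. JAZ10 (AT5G13220, chromosome 5, 4218786 to 4221077, plus strand), known for splice variants that escape degradation, had 0.127, 0.0448 and 0.273 TPM in biological-source leaves and 0.731, 0.235 and 0.426 TPM in artificial-source leaves, against 0.294, 0.164 and 0.289 TPM in weed-free leaves, with overlap between all groups.

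With no TPM minimum, 26506 genes entered the test and these 4 genes could be given an adjusted p. JAZ5 was lower in biological-source than in artificial-source leaves (limma adjusted p = 0.00474), where 9.13% of all genes were called lower. JAZ8 also came out below the threshold against both other groups, beside 0.838% of all genes called higher in artificial-source than in weed-free leaves. With 6 libraries at 0, however, its distance from them is set by the pseudocount and its spread comes from the artificial-source libraries alone, so no p is given and the call is not relied on. No further member was called lower in biological-source leaves than in weed-free leaves beside JAZ9 (limma adjusted p = 0.160 for JAZ5), at a background of 1.17%. For JAZ8 no fold change is given, since it was listed at 0 in 2 groups. The mean coverage per base of JAZ8 was 4.11, 0.984 and 1.69 in the artificial-source libraries, and 0 in the other 6 libraries. Artificial-source libraries also reached the highest depth, with 6.59 to 14.1 units of coverage per FPKM. Biological-source libraries had 5.15 to 8.40 and weed-free libraries 4.37 to 7.93. These ranges overlapped, as artificial replicate 2 (6.59) was below biological replicate 3 (8.40) and weed-free replicate 3 (7.93). The part of depth in the low JAZ values was not tested.

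Counted over the 6 tested members, 1 was called lower (JAZ9) and 0 higher in biological-source leaves than in weed-free leaves, where 3.22% of all genes were called lower and 5.54% higher. Before adjustment the counts were the same, 1 member lower and 0 higher at p under 0.05. In artificial-source leaves, 2 members were called higher (JAZ6 and JAZ9) and 0 lower than in weed-free leaves, where 2.24% of all genes were called higher and 1.25% lower. At a nominal p below 0.05, 3 members were higher, JAZ3 being the additional one. Between the low R:FR sources, 2 members were called lower in biological-source than in artificial-source leaves and 0 higher, but 13.4% of all genes were called lower and 23.6% higher, so calls were common in this comparison. Blocking on the replicate number left the same members called, while the shares of all genes called higher and lower became 7.12% and 4.94% in biological-source over weed-free leaves, 4.44% and 3.72% in artificial-source over weed-free leaves, and 26.3% and 15.4% in biological-source over artificial-source leaves. The median log2 fold change of the 6 members was 0.01 in biological-source over weed-free leaves (0.14 over all genes), 0.28 in artificial-source over weed-free leaves (-0.05 over all genes) and -0.05 in biological-source over artificial-source leaves (0.19 over all genes).

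By the plainer criterion that every library of a group lies on the same side of every library of the other, 3 of the 6 members were higher (JAZ3, JAZ6 and JAZ9) and 0 lower in artificial-source leaves than in weed-free leaves, with 13.6% of all genes higher and 14.4% lower. In biological-source leaves, 1 member was higher (JAZ3) and 1 lower (JAZ9) than in weed-free leaves, with 19.0% of all genes higher and 10.7% lower. Against artificial-source leaves, 2 members were lower in biological-source leaves (JAZ6 and JAZ9) and 0 higher, with 17.9% of all genes lower and 35.2% higher. For each such gene the exact permutation test of the mean TPM gave a two-sided p of 0.1, the smallest that 3 libraries against 3 allow.

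When TPM values were rescaled by the median of ratios, the median of all genes moved by over 0.1, to 0.0002 in biological-source over weed-free leaves and to -0.005 in biological-source over artificial-source leaves. All genes called higher and lower then numbered 1037 and 1358 in biological-source over weed-free leaves, against 986 and 572 without rescaling, and 3353 and 3949 in biological-source over artificial-source leaves, against 4202 and 2385. After quantile normalization these splits were 1041 and 1166, and 3357 and 3347. JAZ9 was at -1.28 (limma adjusted p = 0.0252) in biological-source over weed-free leaves after the rescaling and at -1.32 (limma adjusted p = 0.0231) after quantile normalization, and its call and those of JAZ6 were kept.

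The make-up of the transcript pool of these 10 members differed with JAZ9 and JAZ6. JAZ4, JAZ11 and JAZ13 are not part of this pool, and JAZ11 had 5.84 to 7.97 TPM over all libraries. The summed TPM of the 10 members was 107, 121 and 136 in biological-source leaves and 221, 184 and 157 in artificial-source leaves, against 125, 111 and 144 in weed-free leaves. Artificial-source libraries were above all others in this sum, and biological-source and weed-free libraries overlapped. JAZ12 made up 59.3 ± 0.403% of the pool in biological-source leaves and 37.3 ± 7.25% in artificial-source leaves, against 55.6 ± 2.20% in weed-free leaves (SD, n = 3 each). JAZ9 made up 5.53 ± 0.576% in biological-source leaves and 24.1 ± 4.98% in artificial-source leaves, against 11.9 ± 2.41% in weed-free leaves (SD, n = 3 each). JAZ6 made up 13.1 ± 0.593% in biological-source leaves and 23.3 ± 3.77% in artificial-source leaves, against 12.6 ± 1.98% in weed-free leaves (SD, n = 3 each). In weed-free leaves JAZ6, JAZ9 and JAZ2 stood next to JAZ12 at mean levels of 15.8, 15.0 and 14.5 TPM, and their libraries overlapped. In artificial replicate 1, JAZ9 (65.8 TPM) reached the level of JAZ12 (66.0 TPM).

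**Figure D3:**
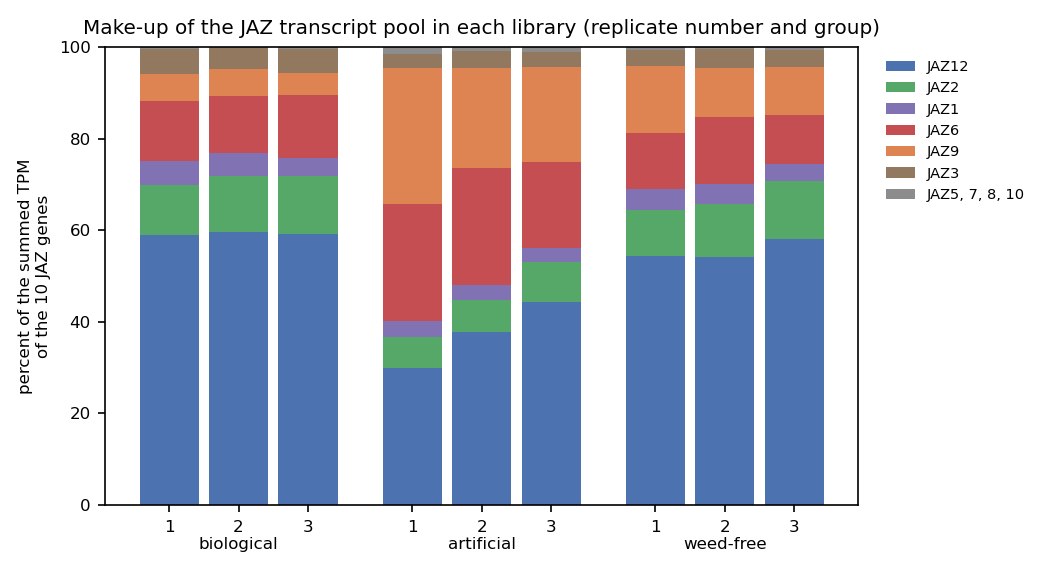
Share of each member in the summed TPM of the 10 JAZ genes (y axis, percent) in each library (x axis, replicate number within group), stacked to 100. JAZ9 and JAZ6 widen in the artificial-source libraries, and JAZ9 is narrowest in the biological-source libraries, at 4.86 to 5.86%.

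Within the artificial group the libraries differed. Replicate 1 was the highest of the 3 for 8 of the 10 members, and replicate 3 for 0. The same count was not made over all genes, so it is not a result about JAZ genes. Replicate 1 was also the deepest library, with 5025090 recovered reads and 14.1 units of coverage per FPKM. Leaving out artificial replicate 1, the log2 fold change over weed-free was 1.28 for JAZ9 (limma adjusted p = 0.0219) and 1.24 for JAZ6 (limma adjusted p = 0.0272), and leaving out artificial replicate 3 it was 1.79 for JAZ9 (limma adjusted p = 0.000241) and 1.70 for JAZ6 (limma adjusted p = 2.47e-05). Both calls remained in each case. Across the 9 libraries, log2 TPM of JAZ9 and JAZ6 had a Pearson correlation of 0.88, and that of JAZ2 and JAZ12 one of 0.87. Once group means were taken out, the coefficients were 0.66 for JAZ9 and JAZ6, 0.87 for JAZ2 and JAZ12 and 0.91 for JAZ9 and JAZ1. These are descriptions over 9 libraries in 3 groups, which share treatment, chamber and library preparation.

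Clock genes set replicate 3 apart in every group. Of 8 clock genes examined, CCA1, LHY, LNK2 and PRR9 were lowest and GI, TOC1 and ELF4 highest in replicate 3 of every group, and PRR7 had no common order. CCA1, a morning clock factor, had 5.24, 3.61 and 1.47 TPM in biological-source leaves and 37.0, 40.9 and 8.21 TPM in artificial-source leaves, against 4.12, 4.55 and 1.27 TPM in weed-free leaves. The summed TPM of the 8 genes ranged from 331 to 638 in biological-source leaves and from 241 to 287 in artificial-source leaves, against 251 to 637 in weed-free leaves, and none was at 0. Without a replicate block, no clock gene passed the threshold against weed-free leaves in limma, with 1 higher in biological-source leaves and 3 higher and 3 lower in artificial-source leaves at a nominal p below 0.05. With the replicate number as a block, 4 were called higher (CCA1, LHY, LNK2 and PRR9) and 3 lower (TOC1, GI and ELF4) in artificial-source than in weed-free leaves, CCA1 with a log2 fold change of 2.96 (limma adjusted p = 0.00025 with the block, 0.107 without). Between the sources, 3 clock genes were called higher and 2 lower in biological-source than in artificial-source leaves, and 4 and 4 with the block. JAZ9 and JAZ6 were likewise lowest in replicate 3 within the artificial group. In weed-free leaves, JAZ9 in replicate 3 (14.8 TPM) lay between the others although CCA1 was lowest there, and in biological-source leaves JAZ6 was highest in replicate 3. Without replicate 3 of every group, the log2 fold changes over weed-free were -1.14 for JAZ9 in biological-source leaves (limma adjusted p = 0.0222), 1.80 for JAZ9 in artificial-source leaves (limma adjusted p = 0.00407) and 1.69 for JAZ6 in artificial-source leaves (limma adjusted p = 7.64e-05). The part of clock phase in the difference between artificial-source leaves and the other groups was not tested.

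**Figure D4:**
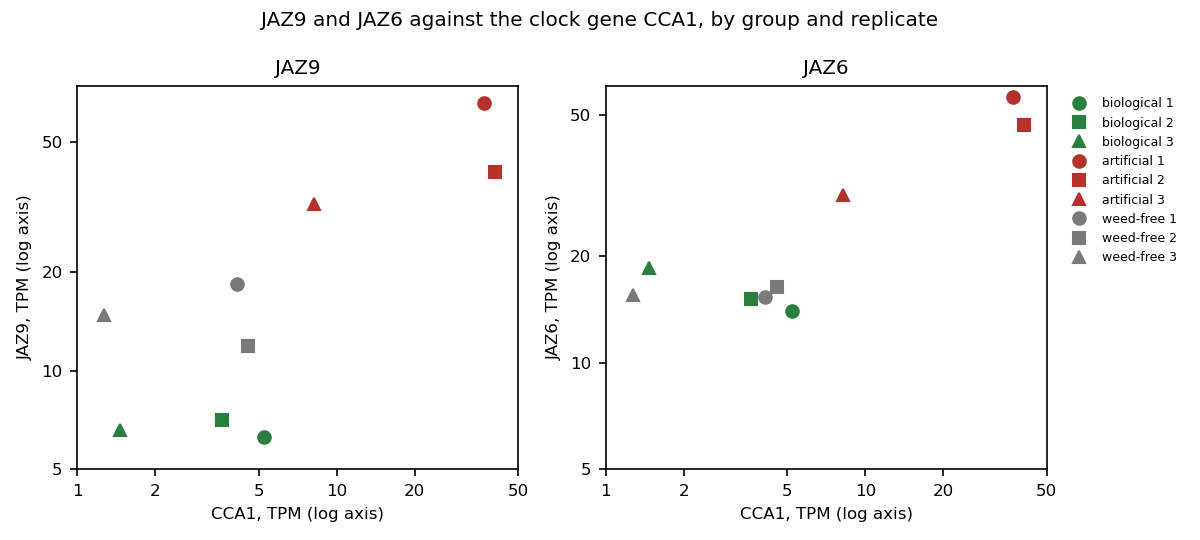
TPM of JAZ9 (left) and JAZ6 (right) against TPM of the clock gene CCA1, both axes logarithmic, with 1 point for each library, colored by group and with the symbol giving the replicate. The 3 artificial-source libraries have the highest CCA1 (8.21 to 40.9 TPM) and the highest JAZ9 and JAZ6, and biological-source libraries lie below weed-free ones in JAZ9 while CCA1 overlaps between them (1.47 to 5.24 and 1.27 to 4.55 TPM).

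Touch and wounding, which raise jasmonate in leaves, were followed with 10 marker genes. TCH2 (AT5G37770), a calmodulin-like gene induced by touch, was higher in artificial-source leaves than in weed-free leaves by a log2 fold change of 0.86 (SE 0.16, limma adjusted p = 0.0180), and the other 9 did not pass the threshold there, although 5 of the 10 were higher and 1 lower at a nominal p below 0.05. With the replicate block 4 of the 10 were called higher, WRKY40, RHL41 and TCH3 being the additional ones (limma adjusted p = 0.0485, 0.0282 and 0.0181). The TPM and the counts of WRKY40 disagree (783 reads at no more than 2.70 TPM), so its call is not relied on. In biological-source leaves 0 of 10 passed in limma, with 1 higher at a nominal p below 0.05. Set directly against artificial-source leaves, biological-source leaves had 1 of the 10 called higher and 2 lower. The median log2 fold change of the list over weed-free was 0.07 in biological-source leaves (0.14 over all genes) and 0.63 in artificial-source leaves (-0.05 over all genes). The summed TPM of the list was 99.3 to 139 in biological-source leaves and 142 to 174 in artificial-source leaves, against 77.3 to 157 in weed-free leaves, with no marker at 0 in all libraries. Their part in the JAZ values was not tested.

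Transcripts of the proteins with which JAZ repressors work showed few differences. COI1 (AT2G39940), the receptor subunit, had 16.2, 14.9 and 14.8 TPM in biological-source leaves and 14.8, 14.8 and 14.7 TPM in artificial-source leaves, against 15.3, 13.9 and 16.3 TPM in weed-free leaves. NINJA (AT4G28910), the adaptor to TOPLESS, had 49.6, 45.4 and 53.8 TPM in biological-source leaves and 42.0, 41.9 and 40.7 TPM in artificial-source leaves, against 44.8, 44.3 and 57.6 TPM in weed-free leaves. Neither passed the test in any comparison (the lowest limma adjusted p was 0.757 for COI1 and 0.146 for NINJA). None of the 5 genes of the receptor complex passed the threshold against weed-free leaves in limma, and none had a nominal p below 0.05 there. Their median log2 fold change was 0.02 in biological-source and -0.03 in artificial-source leaves, against 0.14 and -0.05 over all genes, which stand beside the medians of the following lists too. None of the 8 co-repressors passed either, 1 being higher in biological-source leaves at a nominal p below 0.05, with medians of 0.16 and -0.08. Of the 9 other genes of the TIFY family, to which JAZ genes belong, 7 were tested and 0 passed against weed-free leaves in limma, 1 being lower in artificial-source leaves at a nominal p below 0.05, with medians of 0.11 in biological-source and -0.05 in artificial-source leaves. JAZ11 (AT3G43440), at 5.84 to 7.97 TPM over all libraries, was among those 7. JAZ4 (AT1G48500) and JAZ13 (AT3G22275) were below 1 TPM throughout. Compared directly, biological-source leaves had 1 receptor complex gene and 1 of those 7 TIFY genes called higher than artificial-source leaves, and 0 co-repressors called.

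Among the transcription factors that JAZ proteins bind and the mediator subunit MED25, 7 of 13 genes were tested, with 1 called higher in biological-source and 2 in artificial-source leaves than in weed-free leaves, 0 lower in either, and median log2 fold changes of 0.13 and -0.07. MYC2 (AT1G32640), the best known JAZ target, was listed at 0 in 8 libraries and at 0.103 TPM in artificial replicate 1, yet the table of counts held 2175 reads for it over the 9 libraries. The 2 kinds of table disagree for this gene, so its TPM is no measure of absence, and no comparison was made. They disagree for other listed genes too. PYK10 had 1070 reads at no more than 0.802 TPM, and WRKY40 had 783 reads at no more than 2.70 TPM. COI1, by contrast, had 31 reads at 13.9 to 16.3 TPM. MYC4 (AT4G17880), a bHLH factor that acts beside MYC2 in defense, had 7.54, 7.46 and 8.97 TPM in biological-source leaves and 16.9, 17.5 and 13.1 TPM in artificial-source leaves, against 8.09, 7.37 and 11.6 TPM in weed-free leaves. It was higher in artificial-source leaves than in weed-free leaves (log2 fold change 0.83, SE 0.19, limma adjusted p = 0.0393). MYC5 (AT5G46830), a further bHLH relative, had 1.06, 0.703 and 0.548 TPM in biological-source leaves and 6.14, 5.09 and 2.74 TPM in artificial-source leaves, against 1.60, 1.69 and 1.63 TPM in weed-free leaves, the same order of groups as JAZ9. It was higher in artificial-source leaves than in weed-free leaves (log2 fold change 1.38, SE 0.30, limma adjusted p = 0.0370), and its lower values in biological-source leaves missed the threshold (-1.04, limma adjusted p = 0.0556). JAM2 (AT1G01260), a bHLH factor that represses jasmonate responses, was higher in biological-source leaves than in weed-free leaves (log2 fold change 0.74, SE 0.16, limma adjusted p = 0.0208). MYC4 and MYC5 were called lower in biological-source than in artificial-source leaves (limma adjusted p = 0.00298 and 0.000508), and 0 of the 7 higher.

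Without a replicate block, 4 of the enzymes that make or remove the hormone were called in biological-source leaves against weed-free leaves. In artificial-source leaves 1 was called against weed-free leaves. Set directly against artificial-source leaves, biological-source leaves had 2 of 15 tested synthesis genes called higher and 6 lower. Of 5 tested inactivation genes 2 were called higher and 2 lower there, beside 23.6% and 13.4% of all genes. Of 15 tested genes of jasmonate synthesis, AOC2 (AT3G25770), an allene oxide cyclase, was lower in biological-source leaves than in weed-free leaves (log2 fold change -0.66, limma adjusted p = 0.0171), and LOX2 (AT3G45140), the main wound-responsive lipoxygenase of leaves, was higher in artificial-source leaves (0.79, limma adjusted p = 0.0393), and the remaining 13 passed in neither. With the replicate block AOC1, a relative of AOC2, was also called higher (limma adjusted p = 0.0190) and AIM1, an enzyme of beta-oxidation, lower (limma adjusted p = 0.0472) in artificial-source than in weed-free leaves. The medians of the 15 were -0.32 in biological-source and 0.11 in artificial-source leaves. Of 5 tested genes of jasmonate inactivation, 2 were higher in biological-source leaves than in weed-free leaves. ST2A (AT5G07010), a sulfotransferase of hydroxyjasmonate, had 26.1, 36.0 and 24.6 TPM in biological-source leaves and 10.7, 8.60 and 12.3 TPM in artificial-source leaves, against 6.94, 6.41 and 3.09 TPM in weed-free leaves (log2 fold change of biological-source over weed-free leaves 2.44, SE 0.29, limma adjusted p = 0.00451). ILL6 (AT1G44350), an amidohydrolase that cleaves jasmonoyl-isoleucine, had 2.49, 1.83 and 3.01 TPM in biological-source leaves and 0.933, 0.940 and 0.905 TPM in artificial-source leaves, against 0.833, 0.548 and 0.997 TPM in weed-free leaves (1.52, SE 0.27, limma adjusted p = 0.0120). JMT (AT1G19640), which methylates jasmonic acid, went the other way (-1.45, SE 0.35, limma adjusted p = 0.0322). None of the 5 passed the threshold in artificial-source leaves against weed-free leaves in limma. At a nominal p below 0.05, 2 were higher there, ST2A (log2 fold change 1.00, limma adjusted p = 0.0873) and JOX2 (0.95, limma adjusted p = 0.212). All artificial-source libraries were above all weed-free ones for ST2A. The medians of the list were 0.54 in biological-source and 0.58 in artificial-source leaves.

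Of 7 tested response genes, 2 were higher in artificial-source leaves than in weed-free leaves and 0 passed in biological-source leaves, where in limma 1 was higher and 2 lower at a nominal p below 0.05. Their median log2 fold changes were -0.26 in biological-source and 1.16 in artificial-source leaves. Of the 7 genes, 1 was called higher and 3 lower in biological-source than in artificial-source leaves. PDF1.2 (AT5G44420), a plant defensin, had 1.98, 0.395 and 6.53 TPM in biological-source leaves and 46.1, 53.8 and 66.1 TPM in artificial-source leaves, against 1.77, 2.67 and 2.17 TPM in weed-free leaves (log2 fold change of artificial-source over weed-free leaves 4.59, SE 0.86, limma adjusted p = 0.0433). CLH1 (AT1G19670), a chlorophyllase induced by jasmonate, had 30.3, 27.0 and 39.2 TPM in biological-source leaves and 168, 123 and 73.1 TPM in artificial-source leaves, against 52.1, 46.1 and 50.3 TPM in weed-free leaves (1.21, SE 0.26, limma adjusted p = 0.0399). As with JAZ6 and JAZ9, CLH1 was highest in artificial replicate 1 and lowest in artificial replicate 3, while PDF1.2 had the reverse order. With the replicate block TAT3, a tyrosine aminotransferase, was also called higher in artificial-source than in weed-free leaves (limma adjusted p = 0.0247).

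**Figure D5:**
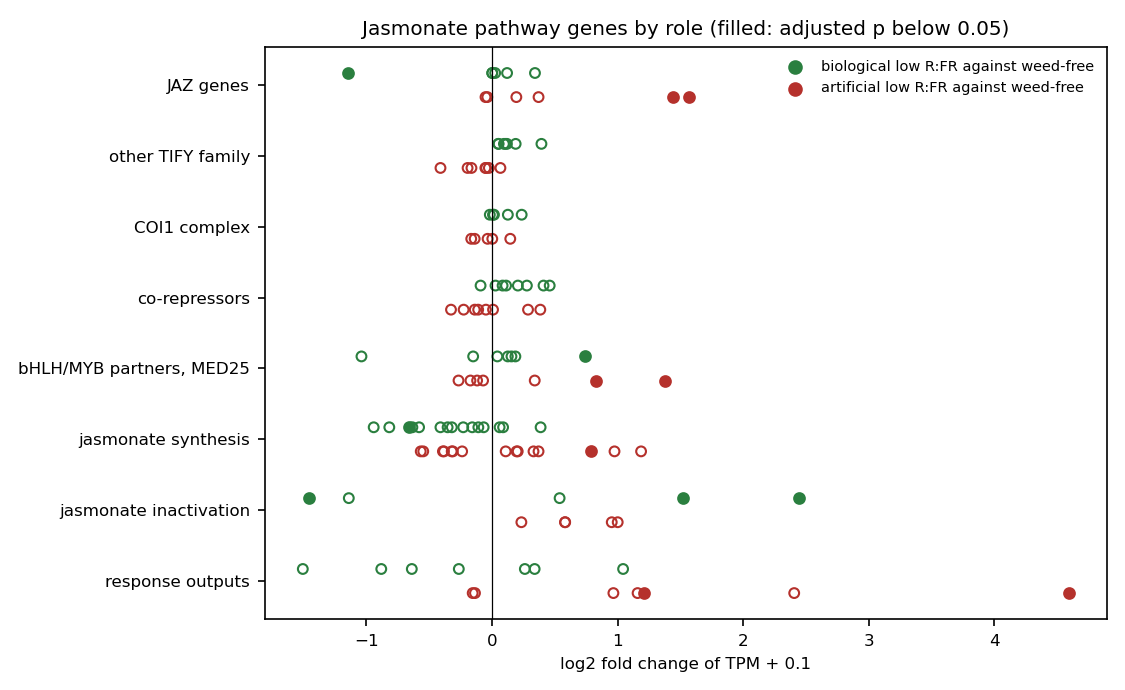
log2 fold changes of TPM + 0.1 (x axis) of tested genes, grouped by role (y axis), for biological-source (upper row) and artificial-source (lower row) leaves against weed-free leaves, filled where the limma adjusted p without a block was below 0.05. Receptor and co-repressor genes have no filled point, and PDF1.2 stands farthest out at 4.59 in artificial-source leaves.

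The tested members had no common pattern over the 9 libraries. The Pearson correlation of a member with the mean of the other 5 ranged from 0.25 for JAZ12 to 0.61 for JAZ3, and was 0.59 for JAZ6 and 0.36 for JAZ9, and 1166 to 5430 of the 17784 genes were more like that mean than the member itself. Among 10937 non-member genes with a mean of at least 5 TPM, those most like the mean of the 6 members were CSK, AGP10, AT3G04780, HPL1, AT3G52920, RSZ22, RAB1A and HTB11, with correlations of 0.94 to 0.90 over 9 libraries, and none of the 8 passed the threshold against weed-free leaves in either treatment. The genes most like JAZ9 alone, a ranking added after its values were seen, were G6PD2, ATP-PRT1 and FAD5 (0.99, 0.98 and 0.98), and those most like JAZ6 were MIPS1 and IAA12 (both 0.98). These coefficients are descriptions over libraries that share treatment and chamber.

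Reads behind the members were few in the table of counts, which held 4 of the 10 (JAZ5, JAZ6, JAZ9 and JAZ12). JAZ9 had 0, 0 and 0 reads in biological-source leaves and 16, 2 and 12 in artificial-source leaves, against 1, 1 and 3 in weed-free leaves. JAZ6 had 2, 2 and 3 reads in biological-source leaves and 21, 11 and 18 in artificial-source leaves, against 1, 4 and 4 in weed-free leaves. JAZ6 had more reads in each artificial-source library than in any other, while JAZ9 in artificial replicate 2 did not exceed weed-free replicate 3. In the TPM tables the mean coverage per base of JAZ9 was 22.3, 24.1 and 34.5 in biological-source leaves and 548, 172 and 239 in artificial-source leaves, against 47.9, 32.9 and 75.9 in weed-free leaves, far more than these counts amount to, and the cause was not tested. At so few reads, JAZ9 and JAZ6 passed limma on the normalized counts only in biological-source against artificial-source leaves. JAZ6 had a log2 fold change of -1.74 (limma adjusted p = 0.0370). JAZ9 was at 0 in all biological-source libraries, so its fold change is set by the pseudocount and that group adds no spread. Its call on the counts is therefore not relied on, and no p is given. No run of 50 bases in the exons of a member was shared with another member or with 9 further TIFY genes. Reads of that length or more from these exons thus have no exact match in another of these genes. Matches with mismatches were not examined.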

How the data were processed

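Leaf RNA of 9 libraries was analysed, 3 in each of 3 groups given by the labels. Per the labels and the study's methods, reads were aligned to TAIR10.1 with Bowtie2 2.4.3, counted with HTSeq 0.13.5 and scaled with DESeq2 1.30.1. The authors deposited TPM, FPKM and coverage for each library (the program is not given in the sources used here) and a table of normalized counts, a signal from which whole reads were recovered (100% of values at a tolerance of 1e-06). Deposited tables of the authors' own fold changes and p-values were not used. Rows of repeated identifiers were summed. The main fit was limma 3.58.1 (lmFit, eBayes with trend and robust, R 4.3.3) on log2(TPM + 0.1) for all 9 libraries, for genes with at least 1 TPM in 3 libraries, so fold changes of low genes are understated. Alternatives used edgeR 4.0.16 and DESeq2 1.42.0. Simulated data served to test limma with and without the replicate block, edgeR and DESeq2, for biological-source against weed-free leaves only. The other settings and comparisons were not simulated.

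Named genes were all members, up to 4 called genes of each of 15 lists of 123 genes in all and any that went against its list, 4 genes fixed by name, and the 8 most like the members. Members and lists were chosen with earlier results of these data known. The study describes the data as independent experiments, and the labels give replicate numbers without saying which libraries were grown together. Deviations of same-numbered libraries correlated by over 0.1 in every pair of artificial-source and weed-free libraries (0.134 to 0.246), but not in every pair with biological-source ones (lowest 0.0011), so blocked values stand beside results of the artificial-source against weed-free comparison where they change a call.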

Additional observations from a re-analysis of the deposited data

Results flagged for a closer look

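The effects of the 2 sources of low R:FR over the same weed-free libraries differed in JAZ6 and JAZ9 by the direct test between sources. In its fold change the weed-free libraries cancel, but they enter its estimate of the spread. With only the 2 groups compared, the limma adjusted p was 0.00424 for JAZ6 and 0.00127 for JAZ9. The difference of biological-source minus artificial-source log2 fold changes was -1.44 for JAZ6 and -2.71 for JAZ9 (limma, adjusted p = 0.000816 and 0.000161), with every biological-source library below every artificial-source one. For JAZ9 the single effects had opposite signs. As the sources stood in separate chambers, source and chamber cannot be told apart.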

How the results depend on the processing

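Over all alternatives, JAZ9 and JAZ6 kept the direction of every call given above. JAZ9 in biological-source over weed-free leaves was called in 18 of 21 alternatives, and ranged from -1.30 to -0.99 (limma adjusted p = 0.00793 to 0.103) when single libraries were left out. In artificial-source over weed-free leaves JAZ9 and JAZ6 were each called in 20 of 21. Between the sources JAZ9 was called in 21 of 21 and JAZ6 in 21 of 22, the exception being DESeq2 (-2.10, adjusted p = 0.0530). The calls of JAZ9 include limma on the normalized counts, where it was at 0 in every biological-source library, and that call is not relied on. Leaving out single libraries gave 0 to 1 called members in biological-source over weed-free leaves.

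On the table of counts, with 4 members and few reads, the number of members called was 0 in limma, edgeR and DESeq2 for both comparisons with weed-free, and 0 in edgeR and DESeq2 for biological-source against artificial-source leaves, where edgeR tested JAZ12 only. At a nominal p below 0.05 limma had 1 member lower in biological-source and 2 higher in artificial-source leaves against weed-free, and DESeq2 had 1 lower, 1 higher and, between the sources, 2 lower, with 8 adjusted p-values not given by DESeq2. edgeR had 0. With no TPM minimum it was 4 in that last comparison, since 10 members entered.

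Members near 0 changed sign without being called. In biological-source over weed-free leaves, median-of-ratios scaling gave -0.015 for JAZ1, -0.13 for JAZ2, -0.14 for JAZ6 and -0.11 for JAZ12. Quantile normalization gave -0.083 for JAZ1, -0.13 for JAZ2 and -0.12 for JAZ6, and FPKM gave -0.00026 for JAZ2 and -0.00073 for JAZ6. JAZ6 was at -0.12 without replicate 3 of every group and -0.31 on normalized counts. In artificial-source over weed-free leaves, JAZ2 was at 0.0040 with median-of-ratios scaling and 0.12 without replicate 3, and JAZ12 at 0.019 and 0.078, with 0.27 on normalized counts, 0.29 in edgeR and 0.30 in DESeq2. In biological-source over artificial-source leaves, JAZ2 was at -0.14 with median-of-ratios scaling, -0.096 with quantile normalization and -0.073 without replicate 3. JAZ12 was at -0.13 with median-of-ratios scaling, -0.010 without replicate 3, -0.15 on normalized counts, -0.10 in edgeR and -0.11 in DESeq2. With single libraries left out, the ranges in biological-source over weed-free leaves were -0.12 to 0.18 for JAZ2, -0.11 to 0.088 for JAZ6 and -0.082 to 0.15 for JAZ12. In artificial-source over weed-free leaves they were -0.14 to 0.12 for JAZ2 and -0.14 to 0.090 for JAZ12. In biological-source over artificial-source leaves they were -0.28 to 0.10 for JAZ1, -0.073 to 0.20 for JAZ2, -0.13 to 0.037 for JAZ3 and -0.022 to 0.15 for JAZ12. The cause of these shifts was not tested.

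Over all 3 groups, libraries with the same replicate number correlated in their deviations by 0.0011 to 0.246, against -0.227 to 0.129 for other pairs, with 14 of 18 best matches to the own number. With the replicate number as a block, the same numbers of members were called (1, 2 and 2), and over all genes 1266 were higher and 879 lower in biological-source over weed-free leaves, 789 and 661 in artificial-source over weed-free leaves, and 4685 and 2731 between the sources. In biological-source over weed-free leaves the block added MYC5 (adjusted p = 0.0322), LOX3, AOC1, NAC019, TCH4 and the leaf marker RCA to the calls and removed the leaf marker CAB1, and in artificial-source over weed-free leaves it added RCA beside the genes named above. It changed no other call of the listed genes against weed-free leaves.

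The number of genes called over the whole table moved with the libraries used. In biological-source over weed-free leaves they numbered 1558, with 159 without weed-free replicate 1 and 5025 without replicate 3 of every group. In artificial-source over weed-free leaves there were 621, with 77 without artificial replicate 2 and 3148 without replicate 3 of every group. Between the sources there were 6587, with 1564 in DESeq2 and 8028 without replicate 3 of every group. On the counts, biological-source over weed-free, artificial-source over weed-free and the contrast of the sources gave 354, 296 and 1708 calls in limma, 305, 267 and 1906 in edgeR (6719 genes tested) and 323, 302 and 1564 in DESeq2. With no TPM minimum the first 2 gave 842 and 331. With 3 libraries a group, JAZ5, JAZ7, JAZ8 and JAZ10 are limited by their low levels.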
